A study of Mus musculus with 1111 samples.

Results

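The genes described here are 9 transcription factors that set or hold the identity of microglia: Spi1, Irf8, Runx1, Cebpa, Sall1, Mef2a, Mef2c, Maf and Bhlhe41. They were taken by symbol from the feature column of the count tables, and all 9 were found among 35583 genes. They were read in microglia isolated one by one from mouse brain at 3 months of age. The mice had received plasma proteins coupled to the dye NHS-Atto647N 20 hours before the cells were isolated. Cells had been sorted into wells by how much dye-labelled plasma protein they carried, as plasma intensity none, low or high, and each well gave 1 Smart-seq2 library, a full-length method. All 3 groups came from dye-injected mice, so the data hold no uninjected control. The labels name no strain, genotype, sex or animal for any cell.

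Microglia are the resident macrophages of the brain. Spi1 encodes PU.1, the ETS factor that opens macrophage enhancers, and it works together with IRF8, RUNX1 and C/EBP factors that macrophages of many tissues share. On that base, SALL1, MEF2 factors and MAF are known to act at microglial enhancers, where signals of the brain such as TGF-beta keep the program on, and loss of Sall1 is known to turn microglia towards an inflammatory state.

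Each TH number in the labels, 1 to 3, has its own count table, and what the number stands for is not stated. Reads of passing cells were summed by group and TH number into 9 sums of 21309816 to 49323522 reads, and 987 of 1045 matched cells passed (35.1% of them plasma none, 35.6% plasma low and 29.4% plasma high). No label names an animal, so each group counts as 1 sample, no test between groups was run, and every ± below is an SD over these tables (n = 3) and no measure of how animals vary. Levels are CPM, so that each scaled sum counts as 1000000 reads in genes. Groups also sat in separate plate columns (1 to 8 for plasma none, 9 to 16 for plasma low, 17 to 23 for plasma high), so plate column and plasma group cannot be told apart. Median reads per cell were 175699, 277222 and 198518 in the none group of TH 1, 2 and 3 and 235108, 404743 and 228822 in the high group, and the median share of reads in mitochondrial genes was 0.548% to 0.659% in the none group and 0.751% to 1.153% in the high group. Their part in the results below was not tested.

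The cells carried microglial RNA in all 9 sums. The 8 microglia markers summed to between 49779 and 59099 CPM. All 6 neutrophil and all 6 lymphocyte markers were at 0, the 7 markers of border-associated macrophages reached at most 22.2 CPM in sum with 5 at 0, and the 6 monocyte markers reached at most 8.42 CPM with 4 at 0. Endothelial markers (3 of 6 at 0) summed to 4.68 to 26.1 CPM over the groups. Oligodendrocyte markers (2 of 6 at 0) summed to 21.2 to 68.9 CPM in the none group and 28.6 to 60.9 CPM in the low group. In the high group they summed to 56.4 to 83.4 CPM. Astrocyte markers (2 of 6 at 0) reached at most 27.8 CPM and red cell markers (0 of 4 at 0) at most 4.65 CPM. Neuron markers (1 of 6 at 0) reached 58.1 CPM in 1 sum of the high group and at most 4.88 CPM in the none and low groups.

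The sequence upstream of the start site was taken from RefSeq (GRCm38.p6), as the 250 bases before the start. It was held for 7 of the 9 factors with 13 start sites between them (Spi1 and Maf were not matched). Bhlhe41 and Runx1, the factors with the highest and the lowest level per length below, each have a start site with the letters CACGTG, the E-box that basic helix-loop-helix factors such as BHLHE41 recognise. Mef2a has the letters GAGGAA, the core that ETS factors such as PU.1 recognise with a flank, at 2 places. The 3 sequences are printed 5′ to 3′ on the strand of the gene, with these letters in capitals.
Bhlhe41: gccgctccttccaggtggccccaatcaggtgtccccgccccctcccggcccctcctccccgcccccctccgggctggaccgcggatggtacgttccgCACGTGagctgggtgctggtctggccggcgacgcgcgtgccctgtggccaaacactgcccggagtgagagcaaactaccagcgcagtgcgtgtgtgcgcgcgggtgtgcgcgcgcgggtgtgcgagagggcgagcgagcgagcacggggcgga
Runx1: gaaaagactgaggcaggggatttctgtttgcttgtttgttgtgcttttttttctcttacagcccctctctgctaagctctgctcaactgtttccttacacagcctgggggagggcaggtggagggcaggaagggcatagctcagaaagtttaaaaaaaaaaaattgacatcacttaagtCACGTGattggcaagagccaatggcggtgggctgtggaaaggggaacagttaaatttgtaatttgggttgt
Mef2a: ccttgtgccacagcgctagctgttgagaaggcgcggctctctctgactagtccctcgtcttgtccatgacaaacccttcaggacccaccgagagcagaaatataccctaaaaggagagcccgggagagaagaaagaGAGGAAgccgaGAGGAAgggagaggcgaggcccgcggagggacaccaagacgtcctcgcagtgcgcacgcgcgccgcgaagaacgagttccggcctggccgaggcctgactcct
The first is chr6:145865421-145865670, the second chr16:92826075-92826324 and the third chr7:67372859-67373108, all on the minus strand. Searched on both strands, CACGTG was in 6.02% of 32851 upstream sequences of this length and GAGGAA in 23.3%. The E-box of Runx1 began 71 bases before its distal start. Of the other start sites, the second of Runx1 and 2 of the 3 of Mef2c hold GAGGAA, while those of Cebpa, Sall1 and Irf8 hold neither motif. The match describes the letters only.

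The 4 lineage factors of macrophages differed widely in level and little between plasma groups. Spi1 (chr2:91082390-91115756, plus strand, protein-coding) stood at 469.2, 400.7 and 415.8 CPM in the none group of TH 1, 2 and 3, at 502.3, 349.7 and 442.9 in the low group, and at 407.2, 418.3 and 398.9 in the high group. The group means were 429 ± 36.01, 432 ± 76.9 and 408 ± 9.76 CPM, and the ranges of all 3 groups overlapped. Plasma high was the tightest of the groups for this master regulator of the myeloid lineage.

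Irf8 (chr8:120736358-120756694, plus strand), a partner of PU.1 that microglia need in development, stood at 823, 755 and 687 CPM in the none group, 539, 977 and 708 in the low group, and 742, 760 and 608 in the high group. Both its lowest and its highest value were in the low group, so that group covered the others. Its log2 ratio was -0.11 ± 0.10 for plasma high against plasma none, with TH 2 at 0.01.

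Runx1 (chr16:92601466-92826149, minus strand), a factor of blood formation and of the yolk sac progenitors of microglia, stood at 108.1, 125.9 and 171.1 CPM in the none group, 153.4, 124.5 and 184.2 in the low group, and 183.95, 97.39 and 106.6 in the high group. It was the most variable member over the 9 sums, with a coefficient of variation of 24.6%. That is close to the median of 23.9% among the 1824 tested genes with a mean of at least 100 CPM. For plasma high against plasma none its log2 ratios were 0.76, -0.37 and -0.68 in TH 1, 2 and 3, so the TH numbers pointed in opposite directions. Without TH 1 its mean was -0.52 for plasma high against plasma none and -0.57 for plasma high against plasma low, where all 3 TH numbers gave -0.09 and -0.29.

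Cebpa (chr7:35119293-35121928, plus strand), a C/EBP factor of myeloid differentiation, stood at 87.99, 68.35 and 95.43 CPM in the none group, 72.38, 60.52 and 125.5 in the low group, and 95.34, 89.43 and 114.9 in the high group. Its plasma high value exceeded its plasma none value for each TH number, by log2 ratios of 0.12, 0.38 and 0.27 (mean 0.25 ± 0.14, a 1.19-fold ratio), though the ranges of the groups overlapped. A single cell held 11.7% of the Cebpa reads of the high group. Without the top cell of each sum the mean log2 ratio was 0.09, and by the mean of CPM over cells it was 0.10, in both cases with mixed signs.

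**Figure D1:**
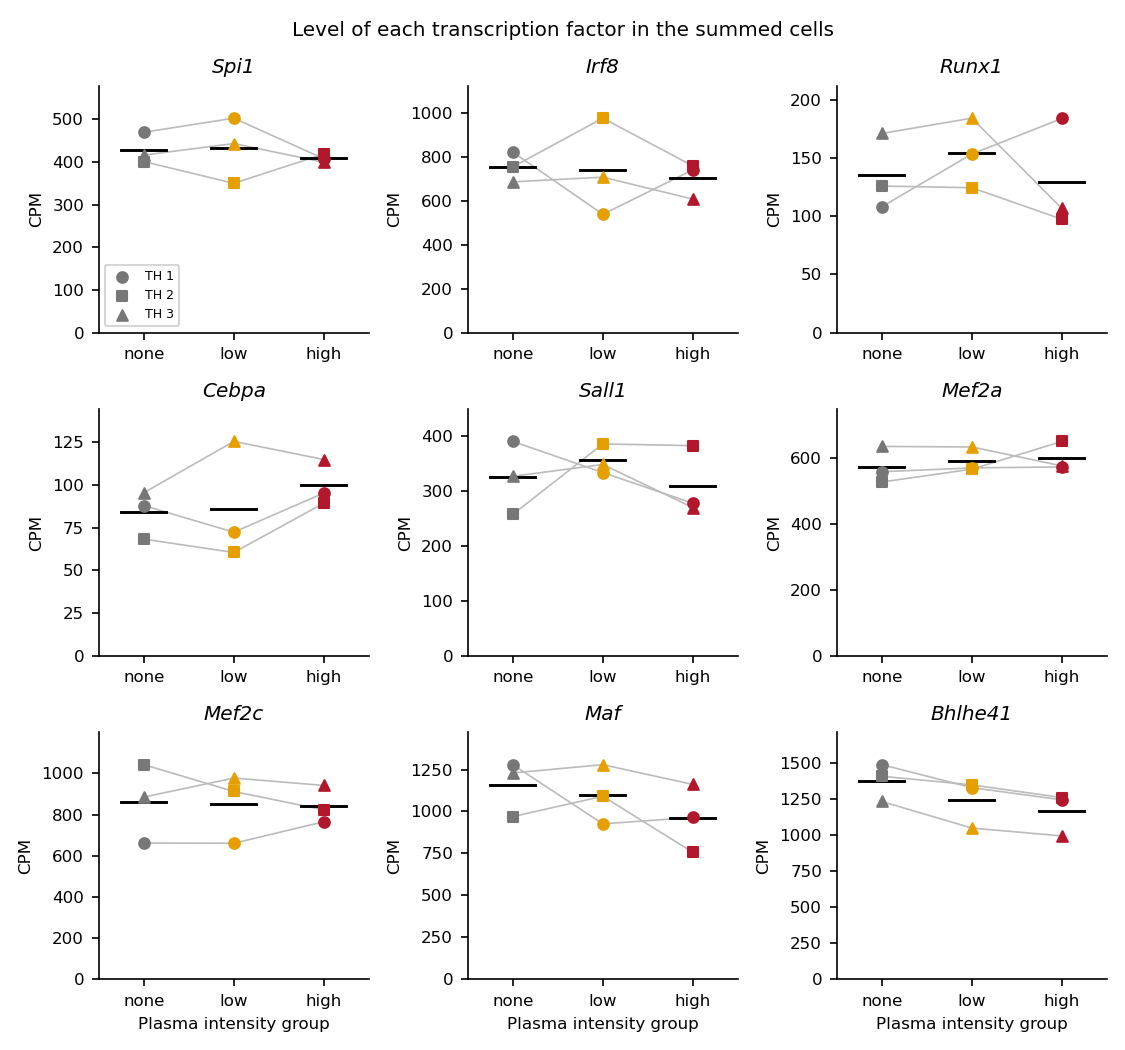
Level of each of the 9 transcription factors in CPM (vertical axes, each from 0) by plasma intensity group (horizontal axes). Symbols are the 3 TH numbers, joined by grey lines, and black bars are group means. In every panel the points of the 3 groups overlap, and for Bhlhe41 each line runs down from none to high.

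Among the 5 factors tied to microglial identity, Sall1, the zinc finger factor that marks microglia among macrophages (chr8:89027235-89044162, minus strand), stood at 390.9, 257.8 and 327.3 CPM in the none group, 334.1, 386.3 and 348.9 in the low group, and 278.04, 383.2 and 270.1 in the high group. The log2 ratio for plasma high against plasma none was -0.49, 0.57 and -0.28 in TH 1, 2 and 3, with a mean of -0.07 ± 0.56. Against plasma low it was below 0 in each TH number, with a mean of -0.22 ± 0.18, of which TH 2 gave only -0.01. The signs were mixed with DESeq2 size factors, with the stricter cell filter and without the outermost wells (means of -0.21, -0.20 and -0.24).

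Mef2a and Mef2c are MADS-box factors with a shared DNA site. Mef2a (chr7:67231163-67372858, minus strand) stood at 559, 527 and 635 CPM in the none group, 570, 566 and 634 in the low group, and 573, 651 and 576 in the high group. With a coefficient of variation of 7.10% over the 9 sums it was the steadiest member, against a median of 23.9% among the 1824 tested genes with a mean of at least 100 CPM. Mef2c (chr13:83504034-83667080, plus strand), which restrains microglial responses to inflammation, stood at 662, 1043 and 885 CPM in the none group, 660, 912 and 978 in the low group, and 765, 823 and 942 in the high group. Its group means of 863 ± 191.5, 850 ± 167.6 and 843 ± 89.9 CPM lay closer together than its TH numbers did, since TH 1 was the lowest in each group.

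Maf (chr8:115682942-115707794, minus strand), a basic leucine zipper factor of resident macrophages, stood at 1279, 969 and 1230 CPM in the none group, 926, 1091 and 1279 in the low group, and 964, 756 and 1161 in the high group. For each TH number its plasma high value was under its plasma none value, by log2 ratios of -0.41, -0.36 and -0.08 (mean -0.28 ± 0.18, a ratio of 0.822), and the ranges overlapped because TH 3 of the high group lay above TH 2 of the none group.

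Bhlhe41 (chr6:145858243-145865558, minus strand), a basic helix-loop-helix repressor, stood at 1490, 1409 and 1234 CPM in the none group, 1330, 1349 and 1049 in the low group, and 1245, 1261 and 994 in the high group. In each TH number plasma none was the highest and plasma high the lowest, an order that no other factor kept in all 3. The mean log2 ratio was -0.24 ± 0.08 for plasma high against plasma none (a ratio of 0.845), -0.15 ± 0.09 for plasma low against plasma none and -0.09 ± 0.01 for plasma high against plasma low. The steps were small beside the distance between TH numbers, as TH 3 of the none group lay below TH 1 and TH 2 of the high group. The order held in 3 of 3 TH numbers under the other scalings and cell filters, and in 2 of 3 by the mean of CPM over cells. How many of all tested genes keep such an order was not computed, so it is given as a description.

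A gene passed the size rule where its mean log2 ratio was at least 1 in size (2-fold), its sign was the same in 3 of 3 TH numbers, its mean was at least 20 CPM and at least 10% of the cells of 1 group had a read. All 9 factors passed the filter on low values. For plasma high against plasma none 0 of 9 passed the size rule, against 5.15% of 5534 tested genes. For plasma low against plasma none 0 of 9 passed, against 2.64% of 5489, and for plasma high against plasma low 0 of 9, against 3.28% of 5709. Beside backgrounds this low, a count of 0 among 9 genes is not a result about these factors.

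Agreement in sign alone was near or below the background. In plasma high against plasma none 3 of 9 factors kept 1 sign over all 3 TH numbers (Cebpa higher, Maf and Bhlhe41 lower), against 32.5% of tested genes and 37.6% of those with a mean of at least 100 CPM. In plasma low against plasma none it was 1 of 9 (Bhlhe41), against 28.5% and 30.6%. In plasma high against plasma low it was 2 of 9 (Sall1 and Bhlhe41, both lower), against 27.2% and 26.5%. The 3 comparisons share groups and are not independent.

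In each comparison the median size of the ratio was smaller over the factors than over all tested genes. Their median log2 ratio for plasma high against plasma none was -0.07, against 0.05 over all tested genes. The median size of the ratio without its sign was 0.09 in that comparison, against 0.32 over all tested genes and 0.25 over those with a mean of at least 100 CPM. For plasma low against plasma none these medians were 0.06, 0.27 and 0.20, and for plasma high against plasma low 0.09, 0.27 and 0.18. No factor had a mean of 0.5 or more in size over the 3 TH numbers. Of the genes with a mean of at least 100 CPM, 19% did in plasma high against plasma none, 10.2% in plasma low against plasma none and 10.4% in plasma high against plasma low. Without TH 1, Runx1 passed 0.5 in size, as given above.

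**Figure D2:**
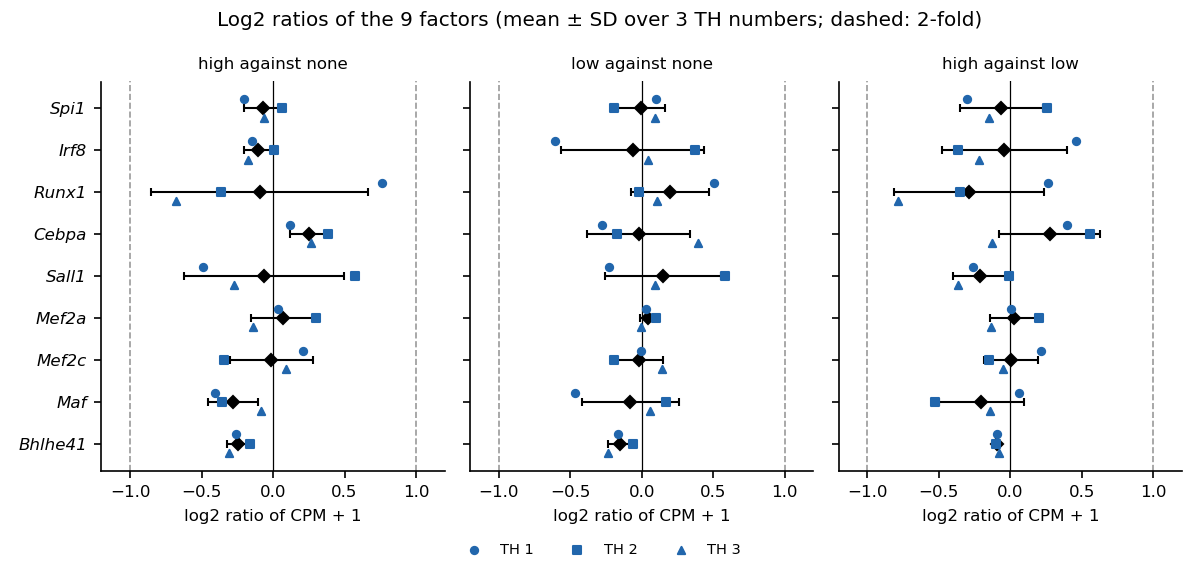
Log2 ratio of CPM + 1 (horizontal axes) for each factor in the 3 comparisons. Diamonds and bars are the mean ± SD over 3 TH numbers, blue symbols the single TH numbers, and dashed lines mark 2-fold. All means lie between -0.29 and 0.27, and Runx1 and Sall1 have the widest spread in plasma high against plasma none.

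Added up, the 9 factors came to 5702 ± 157.2 CPM in the none group, 5551 ± 403 in the low group and 5221 ± 43.3 in the high group. The sums of the high group (5172 to 5254 CPM) lay below those of the none group (5557 to 5869), and those of the low group (5088 to 5817) reached into both ranges. How often the sums of 9 other genes separate like this was not computed. Without Maf and Bhlhe41, a split made after their values were seen, the other 7 came to 3165 ± 59.9 CPM in the none group and 3094 ± 110.7 in the high group, with overlapping ranges. By library size alone, by the mean of CPM over cells or without TH 2, the ranges of these 7 did not overlap. Their mean was lower in the high group under each setting, though the difference was only -5.8 CPM without TH 3. Whether the ranges overlapped depended on the setting.

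Levels of different genes were compared per length of merged exons (GENCODE M21), scaled to sum to 1000000 as TPM-like values. Bhlhe41 led with a mean of 567 ± 68.6 over the 9 sums of all groups (SD, n = 9), followed by Spi1 with 475 ± 55.8, Maf with 395 ± 78.4 and Irf8 with 313.5 ± 49.6. A lower tier held Sall1 with 189.6 ± 28.7, Mef2c with 164.6 ± 30.96, Mef2a with 121.2 ± 11.3 and Cebpa with 103.6 ± 27, and Runx1 was last with 35.2 ± 9.34. Bhlhe41 thus ranked 180 and Runx1 3894 among 13188 genes with a level. Spi1 stood well below Irf8 in CPM and above it per length, since its merged exons span 2695 bases against 7055.

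Most neighbours in this order did not separate. Between Irf8 and Sall1, and between Cebpa and Runx1, the ranges over the 9 sums did not overlap. Mef2c lay above Mef2a in 9 of 9 sums although their ranges overlapped. Bhlhe41 lay above Spi1 in 7 of 9 sums, and Spi1 led in the low and high groups of TH 3. Cebpa lay above Mef2a in 2 of 9, the same pair of sums. Runx1 was last in every sum.

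**Figure D3:**
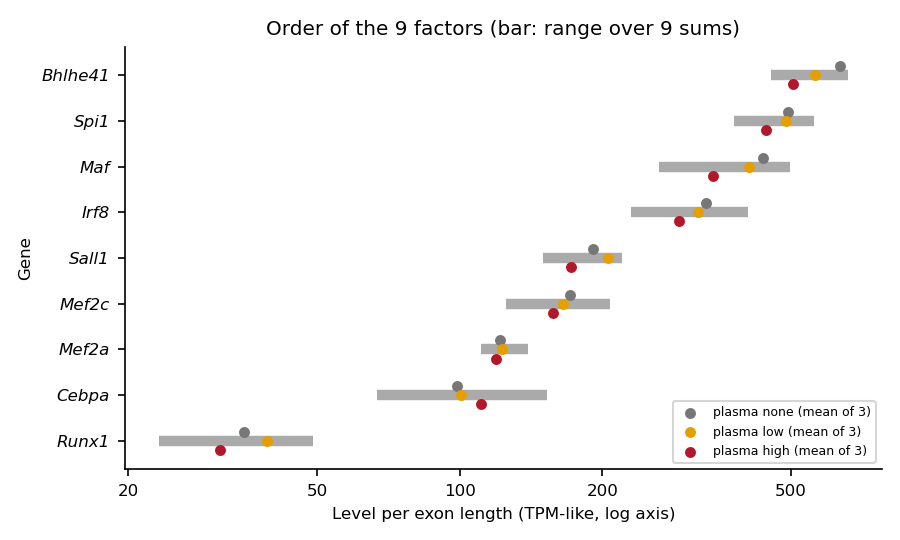
Level per exon length of the 9 factors (TPM-like, log axis), ordered by mean. Grey bars are the range over 9 sums and dots are the means of the 3 TH numbers in each group. Gaps without overlap lie between Irf8 and Sall1 and between Cebpa and Runx1.

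Exons of some factors overlap genes on the opposite strand, and whether counting used strand is not given in the sources used here. Bhlhe41 shares 1280 exonic bases with Gm43909, Maf 440 with Gm15655 and Cebpa 51 with Gm45091, while the overlaps of Mef2a with Lysmd4 and of Runx1 with Gm26626 lie between those of Maf and Cebpa. Reads there cannot be assigned to either strand with certainty. Spi1, Sall1 and Mef2c have no overlapping gene in this annotation, and Irf8 shares no exonic base with its neighbour.

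In single cells, the factors fell into those read in most cells and those read in a minority. Bhlhe41 had a read in 84.7% of plasma none cells (exact 95% binomial interval 80.5% to 88.3%), 86.9% of the low group and 86.6% of the high group. Maf was read in 84.4%, 88.03% and 81.03%, Irf8 in 77.7%, 85.5% and 79.7%, Mef2c in 77.7%, 82.3% and 81.03%, Mef2a in 76.01%, 80.6% and 82.8%, and Spi1 in 73.1%, 74.6% and 71.7%. Sall1 was read in 58.4%, 63.5% and 54.8%. Cebpa, with 28.9%, 33.6% and 35.9%, and Runx1, with 27.5%, 34.2% and 32.8%, were missed in most cells. These intervals cover counting error only, and a cell without a read may still hold the transcript.

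The share of cells with a read differed with 1 sign over the TH numbers for 2 of 9 factors in plasma high against plasma none (Mef2a and Cebpa), against 42.5% of tested genes. It did so for 2 of 9 in plasma low against plasma none (Irf8 and Mef2c), against 44.5%, and for 2 of 9 in plasma high against plasma low (Sall1 and Maf), against 27.9%. Thinned to 50000 reads per cell, the counts were 3, 2 and 2 of 9, against 40.2%, 42.9% and 27.7%. These counts are near or below the background, so the values that follow describe single factors. Of the tested genes with 1 sign, 91.8% had the higher share in the high group in plasma high against plasma none. In plasma low against plasma none 94% went up, and in plasma high against plasma low 47.5% did. Thinned, these were 88.7%, 92.5% and 41.7%. A higher share than in the none group was thus the direction of most such genes. Irf8 was read in more cells of the low group than of the none group, by 5.45, 11.1 and 6.71 percentage points (mean 7.75 ± 2.95), and by 8.04 ± 3.25 thinned. Its CPM did not follow, with log2 ratios of -0.61, 0.37 and 0.04 in the same comparison. Mef2a was read in more cells of the high group than of the none group, by 7.18, 8.997 and 4.16 points (mean 6.78 ± 2.44, thinned 5.10 ± 3.44), while its CPM ratio had mixed signs. No order of level is read from shares that the CPM did not show.

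For Sall1 and Cebpa the sign of the mean share difference was that of the mean CPM ratio. Sall1 was read in fewer cells of the high group than of the low group. The differences were -5.85, -9.64 and -10.9 points (mean -8.79 ± 2.63, thinned -7.30 ± 1.62). Median reads per cell were higher in the high group than in the low group in each TH number. Median genes per cell were 2045, 1882.5 and 1889 in the high group of TH 1, 2 and 3. In the low group they were 2213, 1768 and 2016.5. The part of reads or genes per cell in this difference was not tested. Cebpa was read in more cells of the high group than of the none group, by 5.89, 3.45 and 11.4 points (mean 6.90 ± 4.05, thinned 5.71 ± 5.79). That was also the direction of most tested genes with 1 sign, as given above. Mef2c was read in more cells of the low group than of the none group, by 4.58 ± 4.45 points (thinned 3.31 ± 3.35), where its CPM ratio was -0.02 ± 0.17.

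The share of Maf moved most with thinning. Unthinned, its share in plasma high against plasma none differed by 0.41, -5.89 and -5.07 points. Thinned, the difference was -1.46, -7.16 and -7.33 points (mean -5.32 ± 3.34), on shares of 77.7% ± 3.72 in the none group and 72.3% ± 5.27 in the high group. For plasma high against plasma low the differences were -7.51, -0.24 and -13.5 points before thinning and had mixed signs after it.

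**Figure D4:**
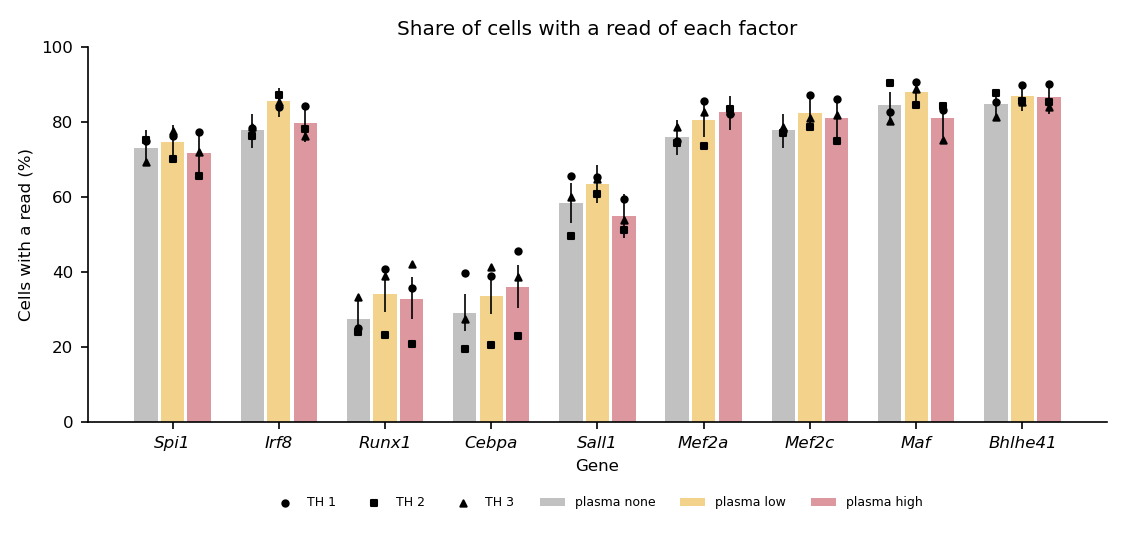
Share of cells with a read of each factor (percent, from 0 to 100) by plasma group. Bars are all cells of a group with exact 95% binomial intervals, and symbols are the 3 TH numbers. Runx1 and Cebpa stand far below the other factors, and TH 2 has the lowest symbol for both in every group.

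For the factors read in the fewest cells, shares differed between TH numbers as well. Cebpa was read in 19.5%, 20.5% and 22.9% of TH 2 cells of the none group, low and high, against 27.4% to 45.5% in TH 1 and TH 3. For Runx1 the TH 2 shares were 23.9%, 23.1% and 20.8%, against 25% to 41.9%. TH 2 held the most reads per cell and the fewest genes per cell in every group, with medians of 1631, 1768 and 1883 genes, against 1728 to 2213 in TH 1 and TH 3.

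Among cells with a read, levels spread widely. Maf had the widest spread, with quartiles of 81.8 and 1970 CPM around a median of 588 in the none group, 88.4 and 1735 around 622 in the low group, and 80.8 and 1364 around 470.5 in the high group. Spi1 had a narrower one, with quartiles of 247.9 and 746 CPM around 461 in the none group and 294.04 and 716 around 465 in the high group. Bhlhe41 cells with a read had medians of 1210, 1031 and 1046 CPM in the none group, low and high.

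A cell held reads of most of the 9 factors. The median was 6 factors in the none group, 7 in the low group and 6 in the high group, and the means over TH numbers were 5.88 ± 0.15, 6.29 ± 0.40 and 6.06 ± 0.38. Thinned to 50000 reads the means were 5.62 ± 0.18, 5.98 ± 0.43 and 5.74 ± 0.41, so the group means differed by less than 1 factor per cell. All 9 were read in 2.02% of cells of the none group, 5.13% of the low group and 3.45% of the high group, and 1 cell, in the low group, had none.

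**Figure D5:**
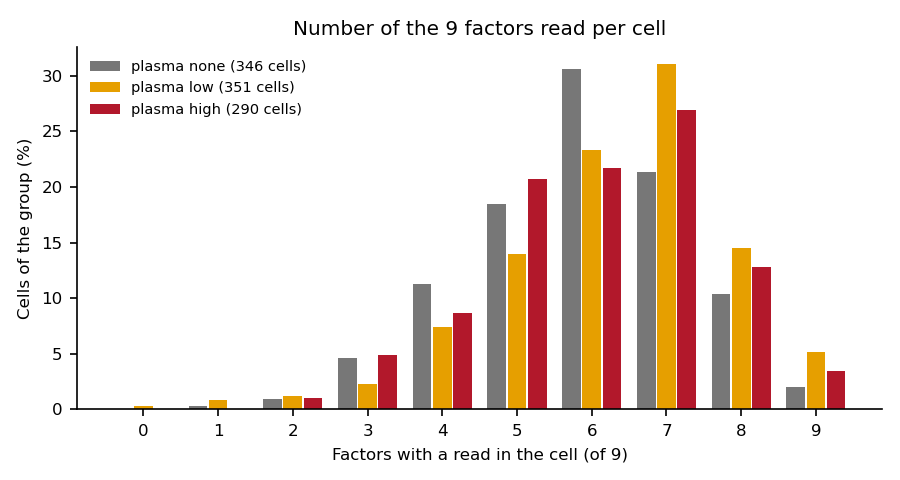
Number of the 9 factors with a read in a cell (horizontal axis) against the percent of cells of the group (vertical axis). Most cells hold between 4 and 8 factors, with the highest bar at 6 in the none group and at 7 in the low group and plasma high.

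From cell to cell, rank correlations among the factors were weak. Over 36 pairs, Spearman's rho of CPM, averaged over the 9 sets of cells, lay between -0.07 (Spi1 and Mef2a) and 0.08 (Cebpa and Maf), which in counts this sparse is no finding. With reads per cell the rho of each factor was 0.04 to 0.15. With genes per cell it was 0.047 (Mef2a) to 0.225 (Cebpa), and with the mitochondrial share -0.102 (Maf) to 0.023 (Cebpa). Over the 9 sums, centred within TH number, Irf8 and Maf varied most alike (Pearson r = 0.74) and Sall1 and Mef2c most opposed (r = -0.75). These are 9 points that share 3 tables, given as a description.

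By the same measure, the genes most like each factor were picked as the 2 with the highest r of about 1761 genes with a mean of at least 100 CPM, so a high r is fixed by the choice. For Spi1 they were Sec22b (r = 0.94) and Wasf2 (0.93), for Irf8 Ppil2 (0.97) and Tlr13 (0.97), for Runx1 Efcab14 (0.93) and Eif4h (0.92), and for Cebpa Lair1 (0.97). For Sall1 they were Unc93b1 (0.96) and Lrrc8a (0.95), for Mef2a Eif4g2 (0.95) and Rpl10a (0.93), and for Mef2c Rnf180 (0.95) and Tmem50b (0.94). For Maf they were Mau2 (0.98) and Rnf167 (0.95), and for Bhlhe41 Ptafr (0.96), the receptor of platelet-activating factor, and Tnfaip1 (0.96).

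Paralogues and partners of the 9 factors were read from a list of 27 genes, of which 17 were tested in plasma high against plasma none. Of these 0 passed the size rule, 2 were higher and 3 lower in 3 of 3 TH numbers, and the median log2 ratio was 0.01. Over all 5534 tested genes, 5.15% passed the size rule and 32.5% had 1 sign. The largest positive ratio was that of Cbfb, the partner subunit of RUNX factors, with 34.3 ± 4.68 CPM in the none group and 69.1 ± 22.3 in the high group (log2 ratio 0.94 ± 0.42). The largest negative ratio was that of Cebpg, a C/EBP family member, with 732 ± 236.02 CPM in the none group, 564 ± 176.7 in the low group and 373.9 ± 71.1 in the high group (-0.93 ± 0.34), and it was lower in each TH number. For plasma low against plasma none 1 of 17 was higher and 1 lower in 3 of 3 TH numbers, and for plasma high against plasma low 2 and 3 were, with 0 past the size rule. In these comparisons 28.5% and 27.2% of all tested genes had 1 sign, and 2.64% and 3.28% passed the size rule.

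Other transcription factors of microglia were read from a list of 28 genes, of which 20 were tested in plasma high against plasma none. Smad3, which carries TGF-beta signals to the nucleus, was the 1 gene past the size rule, against 5.15% of 5534 tested genes. A count of 1 among 20 is near that share and is not a result about this list. Smad3 stood at 183.4 ± 51.5 CPM in the none group, 93.1 ± 33.5 in the low group and 89.4 ± 32.8 in the high group. Its log2 ratios were -2.16, -0.46 and -0.59 (mean -1.07 ± 0.95), so TH 1 gave most of its size. For plasma low against plasma none its ratio was -0.996 ± 0.29, just short of the rule. Stat3, which carries cytokine signals, had the largest positive ratio, with 178.8 ± 81.01 CPM in the none group and 286.9 ± 20.03 in the high group (0.77 ± 0.51). Of the 20 genes 1 was higher and 3 lower in 3 of 3 TH numbers, where 32.5% of all tested genes had 1 sign. The median was -0.02. In the other comparisons 0 of 21 passed the size rule, with 1 higher and 2 lower for plasma low against plasma none and 3 higher and 2 lower for plasma high against plasma low. Over all tested genes, 28.5% and 27.2% had 1 sign in these comparisons, and 2.64% and 3.28% passed the size rule.

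Known targets of these factors were read from 11 genes, all tested. In plasma high against plasma none 0 passed the size rule, against 5.15% of tested genes, and the median log2 ratio was -0.06. Of the 11 targets 3 were higher and 4 lower in 3 of 3 TH numbers. Over all tested genes 32.5% had 1 sign, and 37.6% of those with a mean of at least 100 CPM did. Tyrobp, the adaptor of TREM2 signalling, had the largest positive ratio, with 626 ± 106.3 CPM in the none group and 878 ± 230.9 in the high group (0.47 ± 0.13). Tmem119, a surface marker of resident microglia, had the largest negative one, with 4844 ± 184.96 CPM in the none group, 4199 ± 540 in the low group and 3576 ± 223.9 in the high group (-0.44 ± 0.15). For plasma low against plasma none 2 targets were higher and 1 lower in 3 of 3 TH numbers, and for plasma high against plasma low 1 and 4 were, with 0 past the size rule. Of the genes with a mean of at least 100 CPM, 30.6% and 26.5% had 1 sign in these comparisons. Over all tested genes, 2.64% and 3.28% passed the size rule.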

How the data were processed

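Single microglia were read with Smart-seq2, and the deposited tables hold 1 read count per gene and cell, in 1 table for each TH number. Per the submitters' processing notes, bcl2fastq, Trim Galore, STAR 2.5.3a and Seurat were used with the build mm10. How reads were counted and whether strand was used is not given in the sources used here. Per the file headers, the columns of TH 2 and TH 3 come from alignments reduced to top hits, which those of TH 1 do not state. The deposited values of 1 cell of TH 3 count here in the unit expected count, since 2 of them were not whole, and were rounded. A column with the same well and TH number was found for 1045 of the 1111 cells in the labels, 0 columns were left over, and 66 cells were not analysed here.

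A cell passed with at least 50000 reads and 500 genes. No doublet caller was run on the singly sorted cells. Reads were summed by group and TH number and scaled to CPM with TMM factors of edgeR 4.0.16 in R 4.3.3. Log2 ratios used a pseudocount of 1 CPM within each TH number and were averaged over the 3. With 1 sample per group no test was run. Shares of cells were also computed after thinning each cell to 50000 reads by the exact hypergeometric expectation. The code was tested on simulated data. Of the gene IDs, 35546 were found in GENCODE M21, 99.6% with identical coordinates. Alternatives were other scalings (library size, DESeq2 1.42.0), pseudocounts of 0.1 and 5 CPM, other cell filters, the mean of CPM over cells, and leaving out the top cell, the outermost wells or each TH number. The tools were Python 3.11.15, numpy 2.4.6, pandas 2.3.3, scipy 1.17.1 and matplotlib 3.10.9.

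The members and gene lists were chosen with earlier results of these data known. All 9 members were named. From each other list the genes with the largest positive and negative ratio in plasma high against plasma none, and any past the size rule, were named, and for each member the 2 genes most alike over the 9 sums, leaving out predicted and clone names. The other gene most like Cebpa is not reported here.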

Additional observations from a re-analysis of the deposited data

How the results depend on the processing

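The count of factors past the size rule was 0 in all 3 comparisons under each of the 13 alternatives, and the largest size of a log2 ratio under another scaling, pseudocount or cell choice was 0.43 (Maf, plasma high against plasma none, by the mean of CPM over cells). Leaving out TH 1 went further for Runx1, to -0.52 for plasma high against plasma none and -0.57 for plasma high against plasma low. The median ratio of the factors in plasma high against plasma none ranged from -0.13 to -0.07. Counts with the same sign in each TH number were less steady. For plasma low against plasma none the count was 2 with library size scaling, without the outermost wells, with the mean of CPM over cells and without the top cell. For plasma high against plasma low it was 1 with DESeq2 size factors, the stricter cell filter (100000 reads and 1000 genes) and without the outermost wells, where Sall1 lost its single sign, and 3 with library size scaling and with the mean of CPM over cells. For plasma high against plasma none it was 4 with library size scaling, DESeq2 size factors, no cell filter, the stricter cell filter and without the top cell. Irf8 had 1 sign in that comparison under 6 of 9 settings. Leaving out 1 TH number asks for agreement in fewer sums and gave 4 to 7 factors for plasma high against plasma none (7 without TH 2), 3 to 4 for plasma low against plasma none and 3 to 6 for plasma high against plasma low (6 without TH 1). For each TH number, Maf and Bhlhe41 had the lower value in the high group, against the none group, under all 9 other settings of scaling, pseudocount and cells, and Cebpa was higher under 7 of 9. The summed level of the 9 factors in the high group lay below the none group, without overlap, under each setting. These settings reuse the same cells. In the main setting the difference was -480.6 CPM for all 9 factors and -70.6 CPM without Maf and Bhlhe41. Sums of other genes were not computed for comparison. Ratios were taken within TH number throughout. No test over the TH numbers was run, by choice, since no label ties them to animals and each group counts as 1 sample.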
